A study of Mus musculus with 6 samples.

Results

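Ntsr2, Agt, Glul and Gfap are 4 genes that in the brain are known mainly from astrocytes. They were taken by symbol, 1 row each, out of 5538 genes for which TPM (transcript abundance corrected for transcript length and scaled to a fixed total per library) were given in 6 libraries. The tissue was the perioculomotor (pIII) midbrain, which surrounds the oculomotor nucleus, of C57BL/6 mice. All mice carried a Cre recombinase that needs a drug (CreER) under the Fos promoter, together with a reporter in which Cre switches on the ribosomal protein L10a fused to eGFP. Every mouse went through 6 hr without sleep and then 3 hr of recovery sleep. The drug, 4-OHT, was given directly before one or the other phase, so the Fos promoter decided which cells received the tag, and per the series text the profiled neurons are those tagged in recovery sleep. The labels of single libraries give neither the injection time nor the age of the mice. IP libraries hold RNA that antibodies to eGFP pulled down. The labels do not define Input, which is taken to be the RNA of the dissected tissue before the pulldown. There were 3 libraries of each, and each repeat pooled the tissue of 4 to 5 mice, so a replicate is a pool.

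Astrocytes are glial cells that clear transmitter from the extracellular space, buffer ions and supply neurons with metabolites. Glul encodes glutamine synthetase, which turns the glutamate taken up by astrocytes into glutamine for return to neurons. Ntsr2 encodes a receptor for the peptide neurotensin, Agt encodes angiotensinogen, the secreted precursor of the angiotensin peptides, and Gfap encodes the intermediate filament protein that fills astrocyte processes and is known to increase when astrocytes react to injury. A pulldown of tagged neuronal ribosomes can also carry RNA that was not on tagged ribosomes, and transcripts of untagged cells are a usual measure of that background. The comparison of IP with Input therefore asks how much of the astrocyte signal of the tissue was still present after the pulldown. Whether any astrocytes carried the tag themselves was not tested.

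The TPM of the median gene ranged from 27.7 in IP 1 to 67.2 in Input 2 and was 31.1 in Input 3, so levels are also given as multiples of the median gene of the same library. TPM hold no record of the number of reads, so the depth behind each value is unknown. Inputs 1 and 2 correlated across all genes at r = 0.973, and Input 3 correlated with them at 0.722 and 0.736, below its values of 0.786 to 0.851 with the IP libraries. These correlations run across genes, which are not replicates, and describe the libraries only. Input 3 thus stands apart from the other Inputs, and the differences of the 4 genes are given with it and without it. IP 1 correlated with IP 2 and IP 3 at 0.831 and 0.882, against 0.962 between those libraries.

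Ntsr2, Agt and Glul had lower values in every IP library than in Inputs 1 and 2, and all of them were lower still in Input 3. Relative to the median gene, the mean IP level was 0.39 times that of Inputs 1 and 2 for Ntsr2, 0.38 times for Agt and 0.60 times for Glul. Gfap had a different pattern, with a ratio of 1.05 and its highest level in Input 3. None of the 4 genes passed the test between all 3 IP and all 3 Input libraries, in which limma called 0 of 5538 genes higher (0% of genes tested) and 0 lower (0%) at an adjusted p of 0.05, while 198 and 213 genes had an unadjusted p under 0.05.

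**Figure D1:**
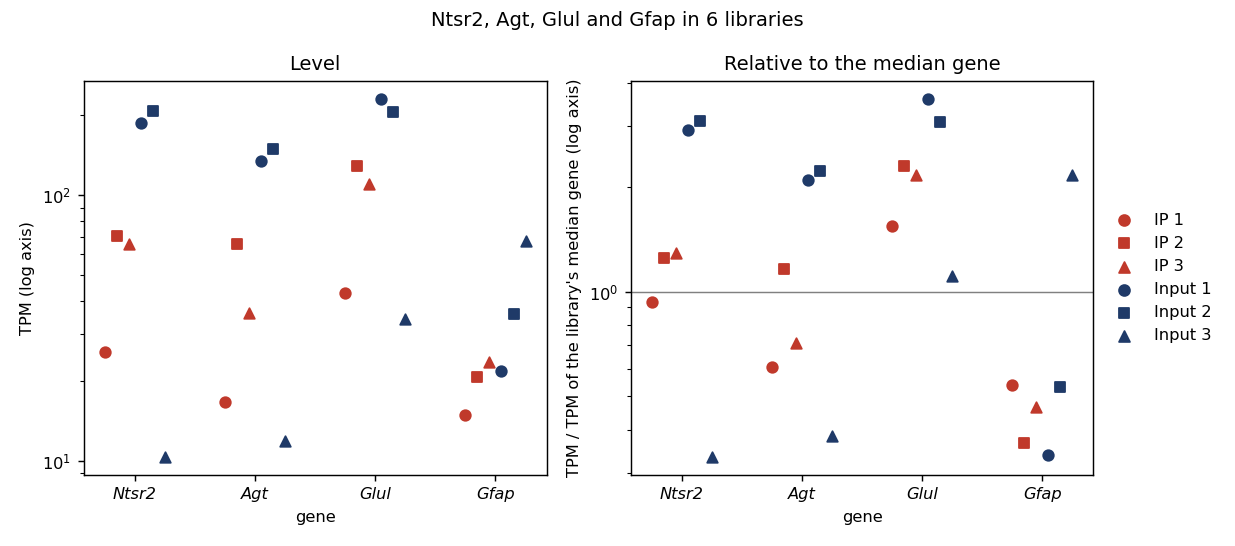
TPM (left) and TPM divided by that of the median gene of the same library (right, grey line at 1), both on log axes, for the 4 genes in each library. Red points are IP, dark blue points Input, and the marker shape gives the replicate number. For Ntsr2, Agt and Glul the 3 IP points lie between Inputs 1 and 2 above and Input 3 below, and for Gfap Input 3 is the highest point.

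The 4 genes have promoters of different makeup, and their letters are shown because 3 of the genes had like values across the libraries. RefSeq (build GRCm38.p6, which is mm10) gives 1 window per gene, from 250 bases before the start to 50 after it. The motifs searched, on both strands, were the TATA box TATAAA, the CCAAT box CCAAT, and TTCNNNGAA, the palindrome bound by STAT factors. They are present in 13.6%, 37.4% and 8.30% of the 32851 windows of this length. TTCNNNGAA was found in the windows of Ntsr2, Agt and Gfap, TATAAA in that of Agt, and CCAAT at 2 places in that of Glul. A match is a description of letters and not of a bound site. The stretch of the Agt promoter before the start (chr8:124569707-124569956, minus strand) and the matches in the other genes with 10 bases on either side are, 5′ to 3′ on the strand of the gene and with the motifs in capitals:
Agt: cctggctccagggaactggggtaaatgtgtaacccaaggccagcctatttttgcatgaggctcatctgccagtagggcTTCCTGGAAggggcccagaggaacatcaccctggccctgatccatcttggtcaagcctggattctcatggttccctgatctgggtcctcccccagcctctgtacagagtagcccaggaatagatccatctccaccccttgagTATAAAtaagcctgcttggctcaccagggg
Ntsr2 (chr12:16653398-16653426, plus strand): gttttggaggTTCCCAGAAaggaggtggt
Gfap (chr11:102897184-102897212, minus strand): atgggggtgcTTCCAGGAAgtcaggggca
Glul, first match (chr1:153899806-153899830, plus strand): agttcctcggCCAATggcctcaggg
Glul, last match (chr1:153899869-153899893, plus strand): cctaggtcagCCAATcaaggcgact

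The first base of the TTCNNNGAA match is 62 bases before the RefSeq start in Ntsr2, 172 in Agt and 2 in Gfap, where the match runs across the start. In GENCODE the genes Ntsr2 and Gfap begin before the RefSeq start, so both matches lie inside the annotated gene there. The TATA box of Agt begins 30 bases before the start. The Glul window is richer in GC (64.3%) than those of Ntsr2, Agt and Gfap (56.3%, 54.7% and 55.7%), with 17 CpG against 5, 1 and 3. The median over all windows was 52.7% GC and 7 CpG. The start of Glul overlaps Teddm2 on the opposite strand and a microRNA gene, Mir8114, on its own strand, and Gfap lies within the noncoding gene Gm26668 on the opposite strand. The sources used here do not say whether counting used the strand.

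Ntsr2, the neurotensin receptor (ENSMUSG00000020591, mm10 chromosome 12, 16653382 to 16660227, plus strand), was measured at 25.8, 70.5 and 65.9 TPM in the IP libraries, in the order of their numbers. Inputs 1 and 2 held 187 and 208 TPM of it and Input 3 held 10.4, the widest range of the 4 genes. As multiples of the median gene these levels were 0.933, 1.25 and 1.29 in IP and 2.91, 3.10 and 0.334 in Inputs 1 to 3. The IP values therefore lay close to the median gene and did not overlap with Inputs 1 and 2, but Input 3 lay below all of them. The log2 difference between IP and all Inputs, with each library centred on its median gene, was -0.36 (SE 0.79, limma adjusted p = 0.891). Against Inputs 1 and 2 alone it was -1.38 (SE 0.24, limma adjusted p = 0.110). Only 52 of the 5538 genes, 0.939%, had a more negative difference than Ntsr2 in that comparison.

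Agt, the angiotensin precursor (ENSMUSG00000031980, mm10 chromosome 8, 124556534 to 124569706, minus strand), was at 16.7, 65.5 and 36.2 TPM in IP libraries 1 to 3. Its Input values were 135, 150 and 11.9 TPM. Relative to the median gene, IP 2 stood highest of the IP libraries at 1.16, with IP 1 at 0.605 and IP 3 at 0.711, while Inputs 1 and 2 stood at 2.10 and 2.23 and Input 3 at 0.384. The order of the libraries was thus nearly that of Ntsr2, except that IP 2 was above IP 3. The log2 difference was -0.62 against all Inputs (SE 0.66, limma adjusted p = 0.796) and -1.42 against Inputs 1 and 2 (SE 0.31, limma adjusted p = 0.158). In the latter comparison 47 genes, 0.849%, had a more negative difference.

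Glul, glutamine synthetase (ENSMUSG00000026473, mm10 chromosome 1, 153899944 to 153909723, plus strand), was the most abundant of the 4 in every library but Inputs 2 and 3. Its level was 42.9, 130 and 110 TPM in IP libraries 1 to 3, and 231, 207 and 34.3 TPM in Inputs 1 to 3. In all 6 libraries it stood above the median gene, at 1.55, 2.29 and 2.17 times its level in IP and at 3.59, 3.08 and 1.11 times in Input. The log2 difference was -0.23 against all Inputs (SE 0.46, limma adjusted p = 0.880) and -0.75 against Inputs 1 and 2 (SE 0.27, limma adjusted p = 0.302). More of the Input signal of Glul than of Ntsr2 or Agt was seen in each IP library, with 0.465, 0.688 and 0.650 of the mean level of Inputs 1 and 2 in IP 1, IP 2 and IP 3. The same shares were 0.311, 0.415 and 0.431 for Ntsr2 and 0.279, 0.535 and 0.328 for Agt, all relative to the median gene.

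Gfap, the astrocyte filament protein (ENSMUSG00000020932, mm10 chromosome 11, 102887336 to 102900912, minus strand), was the lowest of the 4 outside Input 3, with 14.9, 20.8 and 23.6 TPM in IP libraries 1 to 3, and 21.7, 35.8 and 67.3 TPM in Inputs 1 to 3. Relative to the median gene it stood at 0.539, 0.367 and 0.464 in IP and at 0.338 and 0.532 in Inputs 1 and 2, so these 5 libraries overlapped. Input 3 was alone above the median gene, at 2.17 times its level, which is 4.98 times the mean of Inputs 1 and 2. The log2 difference was -0.67 against all Inputs (SE 0.63, limma adjusted p = 0.774). Without Input 3 it was 0.10 (SE 0.30, limma adjusted p = 0.910), so the direction against all Inputs came from that 1 library.

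In IP the order of the levels was Glul (94.3 ± 45.5 TPM, SD, n = 3), Ntsr2 (54.1 ± 24.6), Agt (39.5 ± 24.5) and Gfap (19.8 ± 4.45), and this order held in each IP library and in Input 1. Neighbours in that order overlapped in their range over the 3 IP libraries. The Input means over all 3 libraries were 157 ± 107, 135 ± 109, 98.9 ± 75.7 and 41.6 ± 23.3 TPM (SD, n = 3), and those of Inputs 1 and 2 alone were 219 ± 16.9, 198 ± 14.6, 142 ± 10.5 and 28.7 ± 9.91 TPM (SD, n = 2). Input 2 had nearly equal TPM of Glul and Ntsr2, with a ratio of 0.995, and Input 3 had Gfap first, then Glul, then Agt and last Ntsr2.

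The limma comparison of Inputs 1 and 2 with IP called 16 genes higher in IP (0.289% of those tested) and 1 lower (0.0181%), and none of the 4. Values of all 3 IP libraries lay below both of those Inputs in 1117 genes (20.2%) and above both in 1005 (18.1%), on the scale relative to the median gene. Ntsr2, Agt and Glul were among the former and Gfap in neither set. With all 3 Inputs, 538 genes (9.71%) lay wholly below and 384 (6.93%) wholly above, and none of the 4 was in either set. An exact two-sided permutation test over 3 against 3 libraries gave p = 1, 0.4, 0.7 and 0.7 for Ntsr2, Agt, Glul and Gfap; the smallest p this design allows is 0.1.

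**Figure D2:**
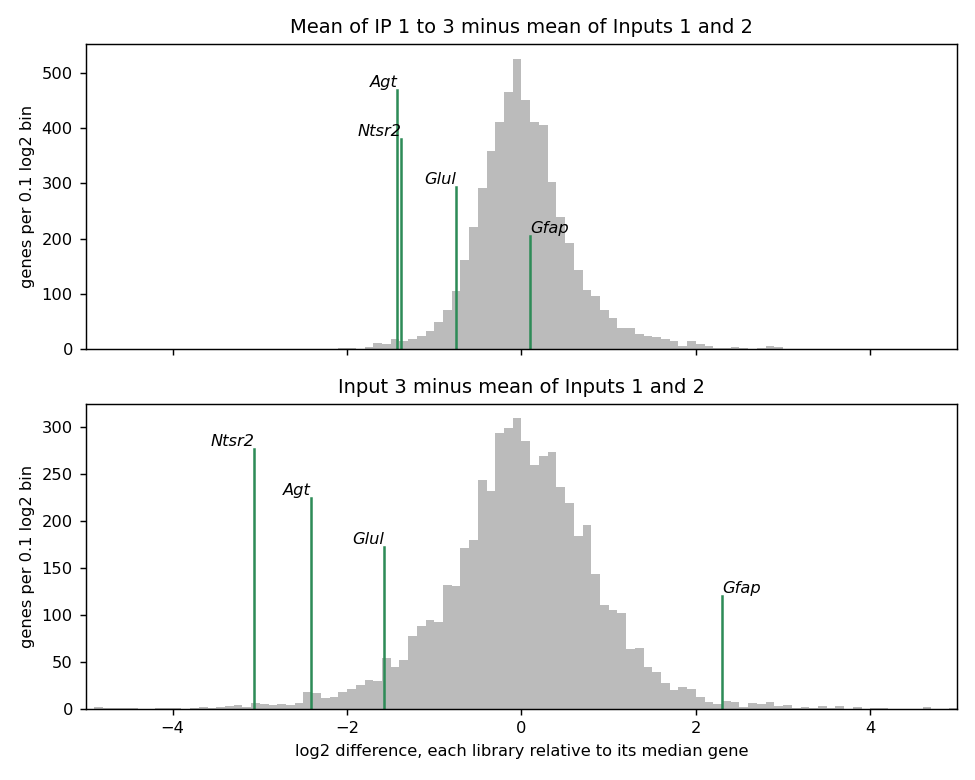
Number of genes per bin of 0.1 log2 units, over all 5538 genes, by the difference of the mean of IP 1 to 3 from the mean of Inputs 1 and 2 (top) and of Input 3 from the same mean (bottom), each library relative to its median gene. Green lines mark the 4 genes; Ntsr2 and Agt lie in the lower tail of both panels, and Gfap lies at 0.10 in the upper panel and at 2.30 in the lower. The panels share Inputs 1 and 2, and 14 genes in the upper panel and 23 in the lower lie outside the axis of -5 to 5.

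When IP 1 was left out together with Input 3, so that IP 2 and IP 3 were compared with Inputs 1 and 2, Ntsr2 and Agt were called lower. Their log2 differences were -1.23 (SE 0.18, limma adjusted p = 0.00628) and -1.24 (SE 0.25, limma adjusted p = 0.0247). Glul had -0.58 (SE 0.19, limma adjusted p = 0.108) and Gfap -0.03 (SE 0.28, limma adjusted p = 0.958). In this comparison 160 of 5538 genes (2.89%) were called lower and 187 (3.38%) higher. It rests on 2 libraries per group, chosen with earlier results on these libraries known.

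Input 3 had less of Ntsr2, Agt and Glul than any IP library. Relative to Inputs 1 and 2 and to the median gene, its log2 differences were -3.07 for Ntsr2, -2.41 for Agt and -1.58 for Glul, and 2.30 for Gfap. Only 31 genes, 0.560%, had a more negative difference in Input 3 than Ntsr2, and 5459 genes, 98.6%, lay below Gfap. These ranks are among genes listed at 7.00 TPM or more in every library, so genes that fell below that level are missing. Ntsr2 (10.4 TPM) and Agt (11.9 TPM) were close to that level in Input 3. With 1 library there is no test of these differences. Pools of tissue are bulk samples, in which fewer astrocytes and less RNA per astrocyte cannot be told apart. Low values in Input 3 were not limited to astrocyte genes. The mitochondrially encoded mt-Nd1 had 16.5 TPM there against 1672 and 1358 in Inputs 1 and 2, and mt-Co1 had 36.4 against 2124 and 2388. Of all 5538 genes, 2743 were lower in Input 3 on the scale relative to the median gene. Centring on the median gene largely sets that count, so it does not show a broad loss. What sets Input 3 apart was not tested.

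The ratios between genes within a library do not depend on how the library is scaled. Agt followed Ntsr2 closely, since the ratio of Ntsr2 to Agt stayed between 0.870 and 1.82 in the 6 libraries while the TPM of Ntsr2 ranged over 20.1-fold. The ratio of Glul to Ntsr2 was 1.23 and 0.995 in Inputs 1 and 2, 1.66, 1.84 and 1.67 in IP 1, IP 2 and IP 3, and 3.31 in Input 3. These 3 sets of libraries did not overlap, though they hold only 2, 3 and 1 libraries. The ratio was highest where Ntsr2, its denominator, was lowest, which is partly built into such a ratio. The ratio of Ntsr2 to Gfap was 8.62 and 5.82 in Inputs 1 and 2 and 1.73, 3.40 and 2.79 in IP 1, IP 2 and IP 3, but 0.154 in Input 3, a range of 55.9-fold.

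**Figure D3:**
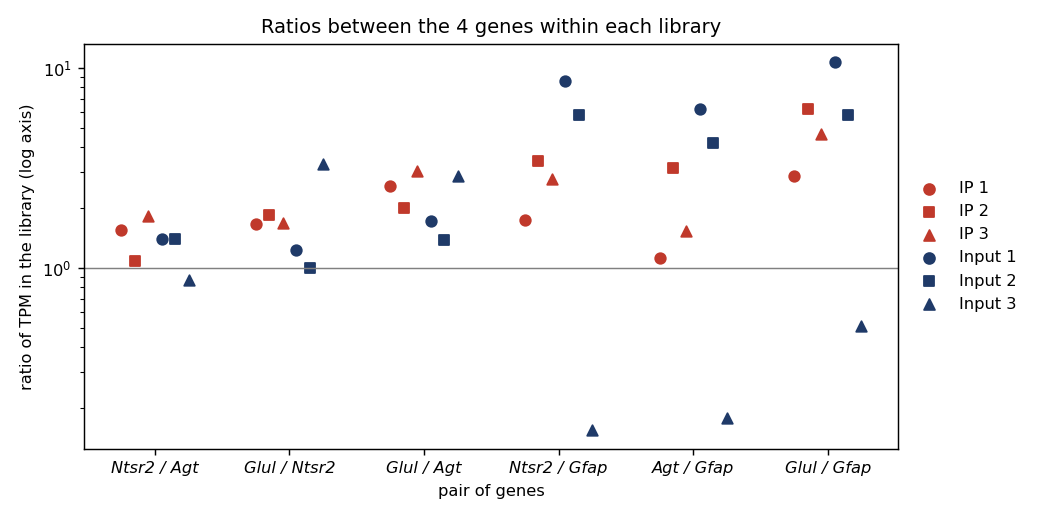
Ratio of the TPM of 2 genes in the same library (log axis, grey line at 1) for the 6 pairs of the 4 genes. Red points are IP, dark blue points Input, and the marker shape gives the replicate number. Pairs among Ntsr2, Agt and Glul stay within a range of 3.33-fold at most, while every pair with Gfap has Input 3 far below the other libraries.

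Over the 6 libraries, with values centred on the median gene, the Pearson correlation was 0.952 between Ntsr2 and Agt, 0.973 between Ntsr2 and Glul and 0.958 between Agt and Glul. Gfap correlated at -0.81, -0.70 and -0.81 with Ntsr2, Agt and Glul. These values describe 6 libraries that share their groups and the distance of Input 3 from the rest, and many genes are as close. Among 2629 candidates with a mean TPM at or above the median of all genes, 50 correlated with Ntsr2, 28 with Agt and 40 with Glul above 0.95. The closest to Ntsr2 were Cnih2 (r = 0.990), Rhbdd2 (0.989) and mt-Nd1 (0.987), and the closest to Agt were mt-Co1 (0.990), Apoe (0.985) and Syngr3 (0.981). Glul was closest to Tspan3 (0.993), mt-Nd1 (0.993) and Rhbdd2 (0.992). Of these, Apoe encodes the main lipid carrier made by astrocytes, while Cnih2, an auxiliary subunit of AMPA receptors, and Syngr3, a synaptic vesicle protein, are known from neurons, and mt-Nd1 and mt-Co1 are mitochondrially encoded. The genes closest to Gfap were Snrpn (0.986), R3hdm4 (0.982) and Arpc5l (0.979).

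Of 45 genes listed as astrocyte markers, 24 had a value in all 6 libraries, the 4 genes among them. The lowest TPM listed is 7.00, so a gene that fell below that level in any library has no value here, and Aqp4, Aldh1l1, Slc1a2, Slc1a3 and Gja1, which define astrocytes, were not analysed here. The counts and medians below are therefore over the genes that stayed above that level everywhere and serve as a description. The 24 genes had a median log2 difference of -0.61 between IP and Inputs 1 and 2, beside -0.01 for all genes, and of -0.28 against all 3 Inputs, beside 0.02. Against Inputs 1 and 2, 15 of the 24 (62.5%) had all IP libraries below both Inputs, beside the 20.2% of all genes given above, and 0 had them above. None passed in limma with all libraries or without Input 3. Without IP 1 and Input 3, 6 of the 24 were called lower and 0 higher, beside 2.89% and 3.38% of all genes. The 6 were Ntsr2, Agt, Ndrg2, Apoe, Cst3 and Mt2. The call of Mt2 depended on IP 1, which had 61.7 TPM of it, while IP 2 and IP 3 had 29.8 and 25.2.

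Ntsr2 and Agt were near the lower end of this list. Ndrg2, a cytoplasmic protein that marks astrocytes, was at 73.8, 225 and 265 TPM in IP, at 669 and 732 in Inputs 1 and 2 and at 145 in Input 3. Its log2 difference against Inputs 1 and 2, -1.49, was the only one in the list more negative than those of Agt and Ntsr2. Gpr37l1, a receptor of glial cells, and Atp1b2, a subunit of the sodium pump, had -1.33 and -1.31. Apoe, at 278, 762 and 487 TPM in IP against 1361, 1854 and 195 in Inputs 1 to 3, had -1.16. Plpp3, Cst3 and Acsbg1 had -1.17, -1.09 and -1.03. All of these had every IP library below Inputs 1 and 2.

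Glul lay in the middle of the list, beside Aldoc, the aldolase of astrocytes. Aldoc was at 603, 1714 and 1794 TPM in IP, at 2895 and 3191 in Inputs 1 and 2 and at 596 in Input 3, a log2 difference of -0.71 against Inputs 1 and 2. Clu, Pla2g7, Ttyh1 and Prdx6 had -0.49, -0.54, -0.55 and -0.60. S100b, a calcium-binding protein, was at 160, 194 and 178 TPM in IP against 203, 251 and 106 in Inputs 1 to 3, and stood near Gfap with 0.25. Gfap, S100b, Mt1 and Id3 were the 4 of 24 with a positive difference. The other 20 had a negative one, as did 2798 of all 5538 genes.

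Gfap differed from the rest of the list in Input 3. Relative to the median gene, the list median of Input 3 against the mean of Inputs 1 and 2 was -1.25 log2 units, beside 0.01 for all genes. Of the 24 genes, 22 were lower in Input 3, beside 2743 of all 5538 genes. The exceptions were Gfap (2.30) and Id3 (0.33), and S100b, counted among the 22, was nearly level (-0.02). Gfap was the only gene of the list with its highest value in Input 3, as in 1449 of all 5538 genes. In 14 of the 24 genes (58.3%) Input 3 lay below all IP libraries, beside 30.3% of all genes. The metallothionein genes Mt1, Mt2 and Mt3, which encode small metal-binding proteins, and S100b had their highest value relative to the median gene in IP 1. So did 1697 of all 5538 genes. Mt3, the brain form, was at 634, 282 and 307 TPM in IP libraries 1 to 3 against 774, 480 and 69.8 in Inputs 1 to 3.

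**Figure D4:**
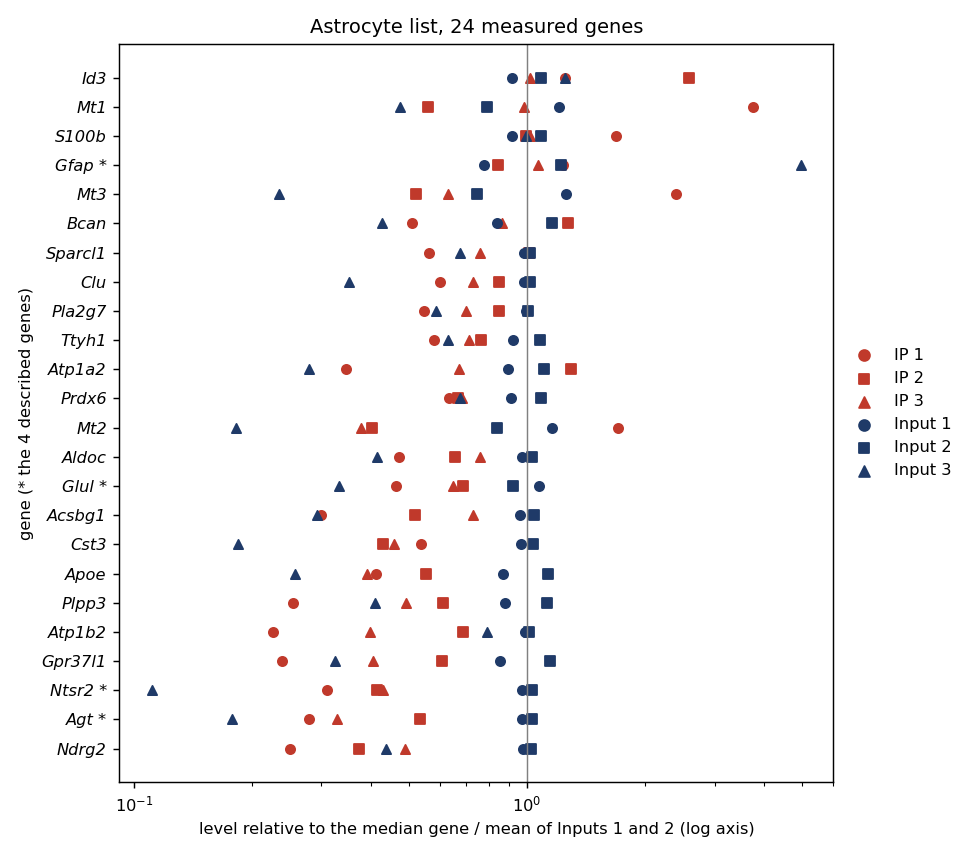
Level relative to the median gene, divided by the mean of Inputs 1 and 2 (log axis, grey line at 1), for the 24 measured genes of the astrocyte list, ordered by their IP difference; the 4 described genes carry an asterisk. Red points are IP, dark blue points Input, and the marker shape gives the replicate number. Ntsr2 and Agt have all IP points at or left of 0.535, and Gfap has Input 3 at 4.98.

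The summed TPM of the 24 genes was 3708, 6394 and 5735 in IP libraries 1 to 3, and 11233, 12234 and 2193 in Inputs 1 to 3. The mean of the IP sums was 0.45 times that of Inputs 1 and 2. This ratio and those of the other lists are of TPM and not relative to the median gene. On the TPM scale the ratios of Ntsr2, Agt, Glul and Gfap were 0.27, 0.28, 0.43 and 0.69. The median gene was at 27.7, 56.5 and 50.95 TPM in IP libraries 1 to 3 against 64.3 and 67.2 in Inputs 1 and 2. A ratio under 1 on this scale is therefore also that of a typical gene. Relative to the median gene, the ratios of the 4 genes were 0.39, 0.38, 0.60 and 1.05, as given above. The oligodendrocyte list, 13 measured of 20, had a ratio of 0.43 and a median log2 difference of -1.40 against Inputs 1 and 2, with 10 of 13 genes wholly below those Inputs, beside 20.2% of all genes. Its Input 3 sum, 1124 TPM, was also far below the 8426 and 10515 of Inputs 1 and 2. The IP libraries differed widely in this sum, with 863, 4998 and 6468 TPM in IP 1, IP 2 and IP 3. IP 1 thus lay below Input 3. The 4 measured genes of the microglia list had a median of -0.10, with 1 wholly below those Inputs. The 5 of the endothelial and mural list had 0.98, with 1 wholly above, beside 18.1% of all genes. Their list median relative to the median gene was 2.08 log2 units in IP 2, against 0.74 in IP 1 and -0.49 in IP 3. In Inputs 1 and 2 it was -0.87 and -0.63. The 20 pan-neuronal genes had a median of 0.03, with 5 wholly above and 4 wholly below Inputs 1 and 2, near the 18.1% and 20.2% of all genes. Its ratio of summed TPM was 0.85. Genes of oligodendrocyte precursors and ependymal cells were not analysed here. Rpl10a, the ribosomal protein that carries the tag, was at 559, 365 and 439 TPM in IP against 117, 61.8 and 36.2 in Inputs 1 to 3, with a log2 difference of 2.98 against Inputs 1 and 2. It was thus high in the IP libraries in which Ntsr2 and Agt lay below both of those Inputs. Whether the low astrocyte and oligodendrocyte values of Input 3 have a common source was not tested.

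The genes known to work with each of the 4 are described where they had a value, which left few for Agt and Ntsr2. In the list of glutamate and glutamine handling, 10 of 16 genes had a value, with a median log2 difference of 0.03 against Inputs 1 and 2. Of the 10, 1 had all IP libraries below those Inputs, Glul itself, which is no larger a share than the 20.2% of all genes. None of the 10 passed in limma in any of the 3 comparisons. Slc38a1 and Slc38a2, glutamine transporters known from neurons, had log2 differences of 0.09 and 0.23 against Inputs 1 and 2, and Glud1, glutamate dehydrogenase, had -0.23. In Input 3, Glud1 was at 8.63 TPM against 165 and 172 in Inputs 1 and 2, a log2 difference of -3.08, close to that of Ntsr2.

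Of the renin-angiotensin list, 2 of 15 genes had a value, Agt and Atp6ap2. Atp6ap2, which is both a prorenin receptor and part of the vacuolar proton pump, was at 43.0, 181 and 152 TPM in IP against 229, 192 and 93.1 in Inputs 1 to 3, a difference of -0.38 against Inputs 1 and 2. The receptors and processing enzymes of the pathway were not analysed here. Of the neurotensin list, Ntsr2 and Sorl1, a sorting receptor that binds neurotensin, had values. Sorl1 was at 26.3, 75.7 and 40.7 TPM in IP against 25.3, 38.8 and 17.2 in Inputs 1 to 3. Its IP values relative to the median gene lay above all Inputs, as in 6.93% of all genes, with a log2 difference of 0.98 against all Inputs and 1.05 against Inputs 1 and 2, and it was not called (limma adjusted p = 0.649 and 0.225).

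Gfap is 1 of 6 measured intermediate filament genes, and the other five, Nefl, Nefm, Nefh, Ina and Prph, form neuronal filaments. Against Inputs 1 and 2, 4 of the 6 had all IP libraries above, namely Nefl (log2 difference 1.62), Nefm (1.71), Nefh (1.92) and Prph (1.32), beside 18.1% of all genes. These 4 were called higher without IP 1 and Input 3, beside 3.38% of all genes. Ina had 0.26 and Gfap 0.10. Of 16 genes listed for reactive astrocytes only Gfap and Stat3 had a value. Stat3, the transcription factor that acts on Gfap in reacting astrocytes, was at 20.2, 40.5 and 22.2 TPM in IP against 24.6, 27.5 and 15.7 in Inputs 1 to 3. In Input 3 it stood 0.37 log2 units above Inputs 1 and 2 relative to the median gene, against 2.30 for Gfap.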

How the data were processed

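RNA of 3 IP and 3 Input libraries was sequenced from pooled mouse midbrain tissue. The authors deposited TPM, per the file headers, in a table of 5538 genes. Per the submitters' processing notes, RSEM, DESeq and the build mm10 were used, in roles and versions that are not stated. No aligner is named there or in the labels. TPM keep no read depth, so the precision set by depth is unknown. All 6 columns of values were used (0 left out). TPM were transformed to log2(TPM + 1), the median gene of a library was subtracted from its values, and genes with a mean TPM under 1 would have been left out (0 were). Groups were compared in limma 3.58.1 (R 4.3.3; lmFit, eBayes with trend), with group as the only term, a threshold of 0.05 and Benjamini-Hochberg adjustment over all genes. Fold changes on this scale understate those of low genes. The fit was tested on simulated data. Nothing states that pools with the same number belong together. No label says more of the replicates, and p-values measure the spread between pools.

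Locations are from GENCODE M21 on mm10, in which 5534 of 5538 gene IDs were found, and promoter windows from RefSeq. The members and the 12 gene lists (197 entries, 88 with a value) were chosen with earlier results of these data known. Genes named are the members, the measured genes of the astrocyte, filament, glutamate, angiotensin, neurotensin and reactive lists, up to 4 of each other list, Rpl10a, and the 3 genes most correlated with each member, without predicted gene models and pseudogenes. The alternatives were no centring, quantile normalization, a pseudocount of 0.1, a minimum mean of 20 TPM or none, the replicate number as a block, each library left out, and IP 1 and Input 3 left out together. Some results are not reported here.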

Additional observations from a re-analysis of the deposited data

How the results depend on the processing

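Without IP 1 and Input 3 together, 187 genes were higher and 160 lower in IP, against 0 and 0 with all libraries, and Ntsr2 (-1.23) and Agt (-1.24) were called. With each library left out in turn, the counts ranged from 0 to 16 higher and 0 to 1 lower, the calls all coming without Input 3. Log2 differences then ranged from -1.38 to 0.18 for Ntsr2, from -1.42 to -0.20 for Agt, from -0.75 to 0.091 for Glul and from -1.21 to 0.10 for Gfap. Ntsr2 turned positive without Input 1 (0.13) or Input 2 (0.18), Glul without Input 1 (0.091), and Gfap without Input 3 (0.10). The astrocyte list's median ranged from -0.61 to -0.06. No centring, quantile normalization, a pseudocount of 0.1 and both other filters changed neither the direction nor the call of the 4 genes, and gave 0 calls in either direction. Without centring, the median gene itself differed by -0.23 and Ntsr2, Agt, Glul and Gfap by -0.60, -0.87, -0.47 and -0.91. A replicate block gave 0 genes higher and 0 lower, with 185 and 137 at an unadjusted p under 0.05, and adjusted p (limma) of 0.918, 0.838, 0.921 and 0.833 for Ntsr2, Agt, Glul and Gfap. Same-numbered libraries correlated across genes in their deviations from the group means at -0.10, 0.25 and -0.17. Libraries with unlike numbers had values from -0.25 to 0.19. With 3 libraries per group and Input 3 apart from the rest, these values cannot show whether the numbers pair pools. Values of 7 TPM bound the table from below, and depth is unknown.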
